A study of Solanum lycopersicum with 18 samples.

Results

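Tomato (Solanum lycopersicum) roots were compared 3 h after dexamethasone (DEX) with roots that were not induced. DEX is a synthetic glucocorticoid, used here at 10 mg/L to switch on Rosea1, a MYB transcription factor of snapdragon, and Delila, a bHLH factor of the same plant. All groups carry the DEX-inducible Rosea1 and Delila system, the controls included. The comparison takes the root 3h DEX group, with 3 libraries, and the root control group, with 3 libraries, out of 18 libraries in 6 groups. Roots 24 h after DEX, and callus, an undifferentiated tissue grown in culture, sampled 3 h after DEX and uninduced, are used for comparison, with 3 libraries each. The growth regime was 16 h of light and 8 h of dark at ambient temperature, and the root control libraries carry no time point. The sources used here give neither the promoters of the inducible system nor the number of independent lines, and do not say whether replicates came from separate plants.

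Every feature of the deposited fold-change table was taken, which gave 5295 of 5295, made up of 5293 tomato gene models and the 2 transgenes. The table gives 1 fold per feature and comparison, read here as DEX over uninduced samples of the same tissue. Values per library were not analysed here. Depth, replicate spread and the significance of a single fold are therefore unknown, and no difference below carries a test. Higher and lower mean a fold of at least 2. The root label could not be checked against marker levels, since a fold carries no level. Since no group lacks the transgenes, effects of the DEX treatment, of handling and of the time of day cannot be told apart from those of Rosea1 and Delila.

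Anthocyanins are pigments made from phenylalanine through the phenylpropanoid and flavonoid pathways and stored in the vacuole. Their enzymes are switched on together by a complex of a MYB factor, a bHLH factor and a WD-repeat protein. In a root, cells divide in the meristem behind the cap, then elongate, and then form hairs, endodermis and xylem, each with characteristic wall proteins. Abscisic acid is the hormone of water deficit, and heat stress factors control the genes of protein chaperones.

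At root 3 h, 31.3% of all features were higher and 44.6% were lower, and 1279 features were under 2-fold. Those under 2-fold are in the table through another comparison, because the authors kept features that reached an FDR of 0.05 and a fold of 2 in any of the 4. Unchanged genes are absent, so a count within a gene list covers only its selected members. The median log2 fold was -0.58, a ratio of 0.668, with quartiles of -1.60 and 1.21. With the column centred on that median, 38.4% were higher and 25.4% were lower. Centring asks for 2.99-fold below the control to call a feature lower, and for 1.34-fold above it to call it higher. At a 10-fold limit 178 features were higher and 222 lower, against 311 and 117 with centring. At 100-fold 25 were higher and 4 lower, against 31 and 2 with centring. Lower features thus predominated up to 10-fold without centring, and higher features at every limit with it.

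**Figure D1:**
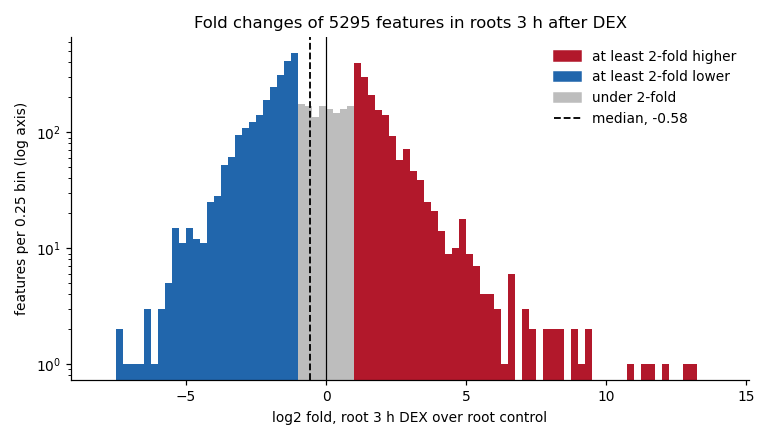
Distribution of the log2 folds of 5295 features, root 3 h DEX over root control, in bins of 0.25 with the count on a log axis. Red bins hold features at least 2-fold higher, blue bins those at least 2-fold lower and grey bins the rest, and the dashed line marks the median of -0.58; the tail on the higher side reaches much farther out than that on the lower side.

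Gene lists were made from identifiers for the anthocyanin genes and from words in the table's descriptions for the others. Of 92 lists, 35 had more higher than lower members, 54 more lower than higher, and 3 equal numbers. With centring 56 had more higher members, 35 more lower and 1 equal numbers. In 18 lists the majority turned from lower to higher under centring, and in 0 the other way. Below, counts with the column centred are given as centred counts. Near-identical copies within a family may share reads, and the sources used here do not say how such reads were counted. In whole roots, fewer cells of a type and less RNA per cell cannot be told apart.

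**Figure D2:**
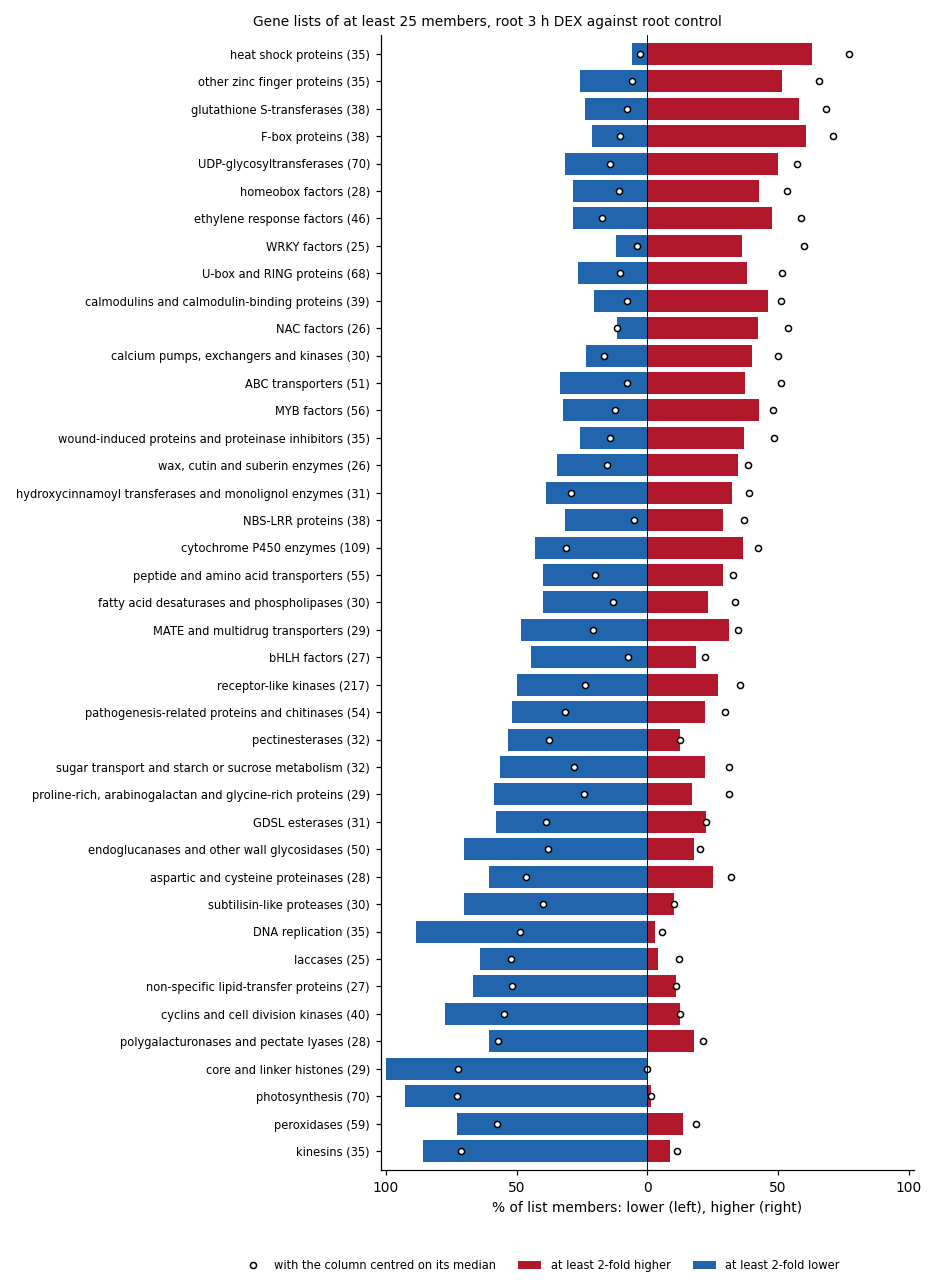
Share of the members of each list with at least 25 members that was at least 2-fold higher (red, to the right) or lower (blue, to the left) at root 3 h DEX against root control, with the list size in brackets. White circles give the shares with the column centred on its median; heat shock proteins stand at the top, and kinesins, peroxidases, photosynthesis genes and histones at the bottom, by their uncentred medians.

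The inducing transgenes and the pigment pathway held most of the extreme folds. Of the 15 highest features, 2 were the transgenes, and all but a cytochrome P450 (Solyc03g025640, 263-fold higher per the authors' deposited table) of the others belonged to the anthocyanin lists. All 8 measured members of the structural list, all 7 of the decoration and transport list and all 3 of the regulator list were higher, with and without centring. Their median log2 folds were 8.53, 9.42 and 7.81. Delila itself was 450.1-fold higher at 3 h and 224-fold higher at 24 h, and Rosea1 294-fold and 98.5-fold higher, per the authors' deposited table. These lists were chosen with earlier results of these data known, so their direction is not independent evidence.

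The structural enzymes differed among themselves in size. Dihydroflavonol 4-reductase (Solyc02g085020) was 4811-fold higher at 3 h and 5443-fold higher at 24 h per the authors' deposited table. Chalcone synthase makes the first compound with a flavonoid skeleton, and its copies Solyc05g053550 and Solyc09g091510 were 2661-fold and 443-fold higher at 3 h per the authors' deposited table. At 24 h these copies stood at 7271-fold and 5701-fold higher per the authors' deposited table. The cytochrome P450 Solyc11g066580, placed here among the structural enzymes, was 1740.3-fold higher at 3 h and 32913-fold higher at 24 h per the authors' deposited table. Anthocyanidin synthase (Solyc08g080040) was 253-fold and 232-fold higher, and flavanone 3-hydroxylase (Solyc02g083860) 179-fold and 246-fold higher, at 3 h and 24 h per the authors' deposited table. Chalcone isomerase closes the ring of the chalcone made by chalcone synthase. Among genes with that description, Solyc05g052240 was 308-fold higher and Solyc05g010320 3.31-fold higher per the authors' deposited table. The shared description does not tell which of them closes the ring. The highest feature of the column was the MATE-type transporter Solyc03g025190, at 8993-fold higher at 3 h and 48796-fold higher at 24 h per the authors' deposited table. The glutathione S-transferase Solyc02g081340 followed at 7401-fold and 8259.7-fold, and the acyltransferase Solyc12g088170, described as a hydroxycinnamoyl CoA quinate transferase, stood at 3343-fold and 5066-fold per the authors' deposited table. Among the enzymes that decorate the pigment, the 3-O-glucosyltransferase Solyc10g083440 stood at 685-fold higher and the glucosyltransferase Solyc12g098590 at 615-fold higher per the authors' deposited table. The anthocyanidin 3-O-glucosyltransferase Solyc09g059170 was 581-fold higher and the O-methyltransferase Solyc09g082660 97.4-fold higher per the authors' deposited table. The O-methyltransferase was thus the lowest of the 7 decoration and transport genes at 3 h. Its fold at 24 h was 1961 per the authors' deposited table, against the same root controls.

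Among the regulators, the MYB-family gene Solyc07g052490 was 341-fold higher per the authors' deposited table. The bHLH gene Solyc09g065100 was 224-fold higher and the WD-repeat gene Solyc03g097340 4.14-fold higher per the authors' deposited table. In callus at 3 h the same genes stood at 22.5-fold, 68.9-fold and 4.35-fold per the authors' deposited table. The MYB and bHLH genes thus had larger folds in root than in callus, and the WD-repeat gene had nearly the same fold, without a test of these differences. The description of Solyc07g052490 does not say whether it activates or represses the pigment genes, so it is not taken as the activating MYB.

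Of 13 further enzymes that the descriptions place in flavonoid synthesis, 6 were higher and 5 lower, with centred counts of 6 and 3. The description anthocyanidin synthase was carried by Solyc10g076670, Solyc10g085190 and Solyc10g076660, at 32.2-fold, 10.3-fold and 7.78-fold higher per the authors' deposited table. A gene described as chalcone synthase-A (Solyc05g053170) was 39.9-fold lower per the authors' deposited table. Among flavonol synthases, Solyc06g083910 was 5.51-fold lower and Solyc06g073080 19.8-fold higher per the authors' deposited table. Not every gene with a flavonoid description went the same way.

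Enzymes that feed the pathway were mostly higher. Phenylalanine ammonia-lyase, which turns phenylalanine into cinnamate, had 9 of 12 members higher and 0 lower, with centred counts of 10 and 0. Solyc03g036480 led at 8.82-fold higher per the authors' deposited table, followed by Solyc03g036470 at 7.86-fold, Solyc03g071870 at 7.63-fold and Solyc03g042560 at 7.04-fold. A second cluster of copies had small folds, with Solyc09g007910 at 2.11-fold and Solyc09g007890 at 2.08-fold higher per the authors' deposited table, named after their values were seen. In callus at 3 h this pair stood at 9.07-fold and 13.3-fold higher per the authors' deposited table.

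The shikimate pathway, which makes aromatic amino acids, had 6 of 10 members higher and 0 lower, with centred counts of 9 and 0. Shikimate kinase Solyc04g051860 was 4.32-fold higher, the prephenate dehydratase Solyc06g074530 3.84-fold and the chorismate mutase Solyc02g088460 2.74-fold higher per the authors' deposited table. Of 8 4-coumarate CoA ligases, which activate coumarate, 4 were higher and 1 lower, with centred counts of 5 and 0. The ligase-like Solyc06g035960 led them at 6.93-fold higher, and Solyc03g005090 was 2.23-fold lower, per the authors' deposited table.

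In the lignin branch of the same pathway, laccases and dirigent proteins had mostly lower members. Laccases, which polymerise monolignols in the wall, had 16 of 25 members lower and 1 higher, with centred counts of 13 and 3. The laccases Solyc06g082260 and Solyc06g082250, both described as Laccase-13, were 53.9-fold and 20.6-fold lower per the authors' deposited table. Solyc12g094470 was 34.2-fold lower at both induction times per the authors' deposited table, a repeated value that 48 features share in some form and that may rest on few reads. Dirigent proteins, which steer the coupling of monolignol radicals, had 14 of 15 members lower and 0 higher, with centred counts of 12 and 1. Solyc06g043080 was 64.5-fold lower and Solyc04g010270 31.5-fold lower per the authors' deposited table. Hydroxycinnamoyl transferases and monolignol enzymes split more evenly, with 10 of 31 higher and 12 lower, which became 12 higher and 9 lower with centring. Their uncentred shares of 32.3% higher and 38.7% lower stood near the 31.3% and 44.6% over all features. A cinnamoyl-CoA reductase-like gene (Solyc02g086770) was 31.1-fold higher and the transferase Solyc08g014490 26.7-fold lower per the authors' deposited table.

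Most genes of cell division were lower without centring. All 29 histones in the table, the proteins that package newly made DNA, were lower, and 21 remained so with centring. The 5 genes of histone H2A were 2.08-fold to 6.84-fold lower and the 7 genes of H2B 2.15-fold to 5.40-fold lower per the authors' deposited table. Reductions were larger among the 7 genes of H3, at 4.07-fold to 10.1-fold, and ranged from 2.24-fold to 11.5-fold among the 9 of H4 per the authors' deposited table. All 7 genes of histone H3 were still lower with centring, against 3 of 5 of H2A, 5 of 7 of H2B and 6 of 9 of H4. The single H1 gene was 2.65-fold lower per the authors' deposited table.

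Cyclins set the phases of the cell cycle, and cyclin B drives entry into mitosis. All 6 genes of cyclin B were lower, by 7.5-fold to 10.3-fold per the authors' deposited table, and all 6 were also lower with centring. Of 6 genes of cyclin A 5 were lower and 1 higher. The exception, Solyc04g008070, was 8.55-fold higher per the authors' deposited table. Of 6 genes of cyclin D, which act at the start of the cycle, 5 were lower, and 2 with centring. Cyclins and cell division kinases together had 31 of 40 members lower and 5 higher, with centred counts of 22 and 5. A further cyclin (Solyc07g052610) was 13.5-fold higher per the authors' deposited table and 51.8-fold higher at 24 h.

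DNA replication genes had 31 of 35 members lower and 1 higher, with centred counts of 17 and 2. The 6 replication licensing factors, the subunits of the replicative helicase, were 2.49-fold to 3.94-fold lower per the authors' deposited table, and 4 of them were lower with centring. Larger reductions stood at a replication protein A subunit (Solyc03g115050, 9.42-fold lower) and MCM10 (Solyc01g111550, 5.94-fold lower) per the authors' deposited table. Kinesins, the motors of spindle and phragmoplast, had 30 of 35 members lower and 3 higher, with centred counts of 25 and 4. Solyc09g097860 was 10.4-fold lower and Solyc01g091480 4.53-fold higher per the authors' deposited table. Tubulins and microtubule proteins had 18 of 22 lower and 0 higher, with centred counts of 11 and 1. Tubulin alpha-7 (Solyc02g087880) was 11.5-fold lower per the authors' deposited table. Thus the mitotic groups kept most of their lower calls under centring, and the replication list kept about as many as it lost.

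At 24 h, against the same root controls, 11.7% of all features were higher and 21.9% lower. Lower then were 18 of the 29 histones, 22 of the 35 kinesins and 21 of the 40 cyclins and kinases. Of the 35 replication genes 5 were lower, a share below that over all features. In callus at 3 h, where 27.8% of all features were higher and 23.4% lower, 2 histones, 0 kinesins, 9 cyclins and kinases and 6 replication genes were lower. The difference between root and callus in these lists was not tested.

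Translation genes were of a plastid type and of a cytosolic type. All 11 plastid-type ribosomal proteins and factors were lower, from the 30S protein S7 Solyc01g007670 at 3.52-fold lower per the authors' deposited table, but only 1 of the 11 was lower with centring. Cytosolic ribosome and translation factors had 2 of 6 members higher and 3 lower, with centred counts of 2 and 1.

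**Figure D3:**
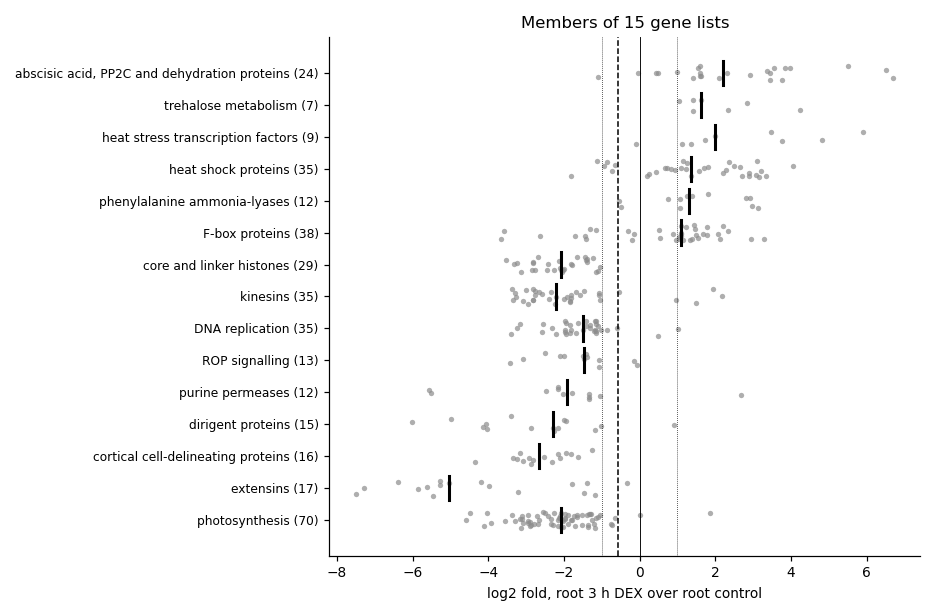
Log2 folds at root 3 h DEX over root control of each member of 15 gene lists, 1 grey point per gene and a black bar for the median of the list, with the list size in brackets. The dashed line is the column median of -0.58 and dotted lines mark 2-fold; the histone points all lie left of the lower dotted line, and the trehalose points all lie right of the upper one.

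Wall genes held 4 of the 5 lowest places of the column. Extensins, hydroxyproline-rich glycoproteins that are cross-linked into the wall and are abundant in root hairs, had 16 of 17 members lower and 0 higher, with centred counts of 13 and 0 and a median log2 fold of -5.04. The lowest features of the column were Solyc12g100110, at 179.6-fold lower at 3 h and 32.9-fold lower at 24 h, and Solyc12g100080, at 156-fold and 28.4-fold lower, per the authors' deposited table. The genes Solyc12g100090 and Solyc12g049150, described like them as Ext1, were 83.2-fold and 49.6-fold lower per the authors' deposited table. Solyc01g005880, described as Dif10, was 58.2-fold lower at both induction times per the authors' deposited table, again a repeated value. At 24 h 16 of the 17 were lower, and in callus at 3 h 0 were lower and 3 higher.

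Without centring, proteins that loosen or remodel the wall were also mostly lower. Over all features 44.6% were lower, and 25.4% with centring. Expansins, which loosen the wall during elongation, had 8 of 13 members lower and 1 higher, with centred counts of 4 and 2. Solyc03g093390 was 33.3-fold lower and Solyc10g086520 4.61-fold higher per the authors' deposited table. Xyloglucan endotransglucosylases, which cut and rejoin hemicellulose, had 14 of 21 lower and 2 higher, with centred counts of 11 and 3. Among these Solyc12g007270 was 88.1-fold lower and Solyc07g056000 7.12-fold higher per the authors' deposited table. Endoglucanases and other wall glycosidases had 35 of 50 lower and 9 higher, with centred counts of 19 and 10. The 4 with the largest reductions were all described as Endoglucanase 1, between 9.47-fold for Solyc08g083210 and 14-fold for Solyc09g010210 lower per the authors' deposited table.

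Cellulose synthases and COBRA proteins had 9 of 17 lower and 3 higher, with centred counts of 8 and 3. The cellulose synthase-like D6 gene Solyc09g075550 was 11.4-fold lower and the COBRA-like gene Solyc10g006450 7.88-fold higher per the authors' deposited table. Pectinesterases had 17 of 32 lower and 4 higher, with centred counts of 12 and 4. Their members spread widely, from Solyc02g075620 at 88.3-fold lower to Solyc03g083730 at 34.4-fold higher per the authors' deposited table. Polygalacturonases and pectate lyases had 17 of 28 lower and 5 higher, with centred counts of 16 and 6, and the rhamnogalacturonate lyase Solyc04g076630 was 25.7-fold higher per the authors' deposited table.

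Peroxidases of this class act in lignin, suberin and wall cross-linking, and 43 of 59 were lower and 8 higher, with centred counts of 34 and 11. Solyc01g006300 was 113-fold lower at 3 h and 1.41-fold lower at 24 h per the authors' deposited table. Solyc11g007220 was 44.9-fold lower and Solyc12g017870 38.5-fold lower per the authors' deposited table. On the higher side stood Solyc07g052550 at 27.8-fold and Solyc01g101050 at 26.6-fold per the authors' deposited table. Proline-rich, arabinogalactan and glycine-rich proteins had 17 of 29 lower and 5 higher, but 9 higher and 7 lower with centring. The proline-rich protein Solyc09g075410 was 98.1-fold lower at 3 h and 21.3-fold lower at 24 h per the authors' deposited table. The glycine-rich protein Solyc09g097780 was 19.5-fold higher per the authors' deposited table.

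Several lists with root-typical descriptions were lower as well. All 16 cortical cell-delineating proteins were lower, and 15 with centring. They are small secreted proteins named after a maize root transcript. Solyc08g079230 led them at 20.4-fold lower per the authors' deposited table and stood at 1.12-fold higher at 24 h. Solyc08g078930, by contrast, was 8.89-fold lower at 3 h and 15.9-fold lower at 24 h per the authors' deposited table. UPF0497 membrane proteins, the family of the Casparian strip proteins of the endodermis, had 9 of 15 lower and 3 higher, with centred counts of 6 and 3. Solyc10g083250 and Solyc06g074230 were 32.7-fold and 29.5-fold lower, and Solyc09g074550 was 15.7-fold higher, per the authors' deposited table. Of 3 root cap proteins 2 were lower, Solyc08g066590 by 7.5-fold and Solyc11g069280 by 5.57-fold per the authors' deposited table, and both remained so with centring. Non-specific lipid-transfer proteins, secreted lipid carriers, had 18 of 27 lower and 3 higher, with centred counts of 14 and 3.

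ROP signalling, the small-GTPase switch that directs tip growth of root hairs, had 11 of 13 members lower and 0 higher, with centred counts of 5 and 0. The GTPase-activating protein Solyc06g084450 was 10.7-fold lower and the exchange factor Solyc08g006550 8.5-fold lower per the authors' deposited table.

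Transporters divided by family. Aquaporins, the water channels, had 13 of 21 members lower and 4 higher, with centred counts of 8 and 4. Solyc08g008050 was 8.93-fold lower and Solyc03g117050 5.47-fold higher per the authors' deposited table. Nitrate transport and assimilation had 12 of 20 lower and 4 higher, with centred counts of 8 and 5. The nitrate transporter Solyc08g007430 was 12.8-fold lower, nitrite reductase Solyc01g108630 6.50-fold lower and glutamine synthetase Solyc01g080280 6.90-fold lower per the authors' deposited table. Purine permeases, which carry purines and related compounds, had 11 of 12 lower and 1 higher, with centred counts of 7 and 1. The neighbours in name Solyc04g074880 and Solyc04g074870 went opposite ways, at 47.2-fold lower and 6.41-fold higher per the authors' deposited table.

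Metal transport and reduction had 10 of 17 members lower and 4 higher, with centred counts of 6 and 5. Phosphate and ammonium transporters had 2 of 13 members higher and 4 lower, with centred counts of 5 and 3. Both uncentred shares, 15.4% and 30.8%, were below the 31.3% and 44.6% over all features. The ammonium transporter Solyc03g045070 was 20.3-fold lower and the ammonium transporter Solyc10g076480 2.43-fold higher per the authors' deposited table. High-affinity sulfate transporters, the uptake route for the sulfur of cysteine and glutathione, went both ways. Solyc04g072760 was 11.3-fold higher and Solyc04g054730 5.46-fold higher per the authors' deposited table, although Solyc06g084140 was 13-fold lower. The sulfate list as a whole had 5 of 10 higher and 4 lower, with centred counts of 5 and 3. Among potassium transporters Solyc05g005720 was 34.8-fold higher per the authors' deposited table.

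ABC transporters, pumps for many small molecules, had 19 of 51 members higher and 17 lower, with centred counts of 26 and 4. The G-family gene Solyc12g098210 was 7.38-fold higher per the authors' deposited table, against 186-fold in callus at 3 h. The G-family gene Solyc01g105450 was 6.82-fold higher at 3 h and 153-fold higher at 24 h in roots per the authors' deposited table, and was listed at 1 in callus at 3 h. MATE transporters outside the anthocyanin list had 9 of 29 higher and 14 lower, which turned to 10 higher and 6 lower with centring. Their uncentred shares of 31.0% and 48.3% were near the 31.3% and 44.6% over all features. The whole column turned likewise with centring, to 38.4% higher and 25.4% lower. The most raised of these MATE genes, Solyc04g076950, was 15.4-fold higher per the authors' deposited table.

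Genes of abscisic acid and dehydration formed the most uniformly higher list outside the pigment pathway among lists of at least 20 members. Of its 24 members 20 were higher and 1 lower, with centred counts of 22 and 0 and a median log2 fold of 2.20. Late embryogenesis abundant proteins, which protect drying cells, had 6 of 6 members higher. Solyc01g095140 was 105-fold higher and Solyc03g116390 15.7-fold higher per the authors' deposited table. The PP2C phosphatases, a family of which only some members repress abscisic acid signalling, also had 6 of 6 higher. Their descriptions do not tell whether any of the 6 acts in that signalling. Among these Solyc03g006930 was 91.6-fold higher per the authors' deposited table. The low-temperature-induced 65 kDa gene Solyc03g025810 stood at 45.6-fold higher per the authors' deposited table.

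Other members of this list, chosen after seeing their values, were high as well. The 9-cis-epoxycarotenoid dioxygenase Solyc07g056570, of the family that makes the committed step of abscisic acid synthesis, was 14.4-fold higher per the authors' deposited table. A dehydrin (Solyc04g082200) was 13.5-fold higher and the receptor PYL6 gene Solyc02g076770 10.9-fold higher per the authors' deposited table. The exception was the receptor PYL9 gene Solyc08g082180, 2.16-fold lower per the authors' deposited table. At 24 h, where 11.7% of all features were higher and 21.9% lower, 6 of the 24 were higher and 2 lower. The dehydrin stood at 1.69-fold lower and Solyc01g095140 at 1.30-fold higher at 24 h per the authors' deposited table. In callus at 3 h 10 of the 24 were higher and 3 lower, and both Solyc03g006930 and Solyc03g025810 were listed at 1.

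All 7 genes of trehalose metabolism were higher, with and without centring. Trehalose 6-phosphate is a signal of sugar supply, and the phosphatase Solyc04g072920 that removes it was 18.8-fold higher per the authors' deposited table. The phosphatases Solyc03g083960 and Solyc03g007290 followed at 7.18-fold and 5.04-fold higher, and the synthase Solyc02g071590 at 3.09-fold higher, per the authors' deposited table. A galactinol synthase (Solyc02g084980), which starts the synthesis of the protective raffinose sugars, was 20.7-fold higher per the authors' deposited table. A stachyose synthase (Solyc01g079300), a later step of the same route and named after its value was seen, was 18.6-fold higher per the authors' deposited table. In the wider list of sugar transport and starch or sucrose metabolism 7 of 32 were higher and 18 lower, which became 10 and 9 with centring. The sucrose phosphate synthase Solyc09g092130 was 12.9-fold lower per the authors' deposited table.

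Heat stress transcription factors had 8 of 9 members higher and 0 lower, with and without centring. Solyc10g079380 was 60.2-fold higher, Solyc08g080540 13.6-fold and the A3 factor Solyc09g065660 11.2-fold higher per the authors' deposited table. Heat shock proteins had 22 of 35 higher and 2 lower, with centred counts of 27 and 1. Of 13 small heat shock proteins of class I, II and IV 10 were higher and 0 lower. The class II genes Solyc03g123540 and Solyc08g062450 were 16.8-fold and 8.85-fold higher per the authors' deposited table. In callus at 3 h 6 of the 35 were higher and 15 lower, and at root 24 h 1 was higher and 1 lower. The class IV gene Solyc11g020330, named after its values were seen, was 4.91-fold higher in root and 12-fold lower in callus per the authors' deposited table. More members were thus higher than lower in root at 3 h, and more lower than higher in callus at 3 h, a difference that was not tested.

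Among all features 31.3% were higher and 44.6% lower, which turned to 38.4% and 25.4% with centring. DnaJ and BAG co-chaperones had 6 of 19 higher and 11 lower, which turned likewise to 7 higher and 5 lower. Their uncentred higher share of 31.6% was near that over all features, and their lower share was 57.9%. Glutathione S-transferases outside the anthocyanin list, which conjugate toxins, had 22 of 38 higher and 9 lower, with centred counts of 26 and 3. Solyc05g006730 was 15-fold higher and Solyc12g011300 25.1-fold lower per the authors' deposited table. Pathogenesis-related proteins and chitinases had 12 of 54 higher and 28 lower, and 16 and 17 with centring. The PR-1 gene Solyc07g006710 was 27.5-fold lower per the authors' deposited table. Wound-induced proteins and proteinase inhibitors had 13 of 35 higher and 9 lower, with centred counts of 17 and 5. Their uncentred shares were 37.1% higher and 25.7% lower.

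Genes of other hormones were mixed. Gibberellin oxidases and synthesis genes had 7 of 11 higher and 3 lower, with centred counts of 8 and 3. Gibberellin 2-oxidases inactivate the hormone, and Solyc02g080120 and Solyc07g056670 of that kind were 44.2-fold and 12.3-fold higher per the authors' deposited table. Solyc03g116260, also described as a gibberellin 2-beta-dioxygenase, was 5.77-fold lower per the authors' deposited table. The 20-oxidase-3 gene Solyc11g072310, of an enzyme that makes the hormone, was 16.1-fold lower per the authors' deposited table, while the 20-oxidase-like Solyc03g025490 was 5.04-fold higher. Gibberellin-regulated peptides and receptors had 7 of 15 lower and 3 higher, with centred counts of 6 and 4. Cytokinin oxidases and response regulators had 8 of 13 lower and 2 higher, with centred counts of 3 and 2. The response regulator ARR3 gene Solyc06g048600, of a type that cytokinin induces, was 40.8-fold lower per the authors' deposited table.

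Ethylene is made by 1-aminocyclopropane-1-carboxylate (ACC) synthase and oxidase. That list had 4 of 22 higher and 9 lower, and 6 and 5 with centring. Its lower share of 40.9% was near the 44.6% over all features, and its higher share of 18.2% below the 31.3%. Its members ranged from the ACC oxidase Solyc11g010410 at 34.9-fold lower to the ACC oxidase Solyc10g076680 at 27.8-fold higher per the authors' deposited table. Auxin response factors and Aux/IAA proteins had 6 of 18 higher and 6 lower, and 8 and 1 with centring. Solyc09g010230, an auxin response factor, was 12.6-fold higher per the authors' deposited table. Auxin carriers had 4 of 10 lower and 1 higher, with centred counts of 1 and 1, and the lower share was below the 44.6% over all features. The efflux carrier Solyc07g006900 was 3.69-fold lower at 3 h and 8.25-fold lower at 24 h per the authors' deposited table. Jasmonate synthesis and JAZ proteins had 6 of 15 higher and 7 lower, and 6 and 4 with centring. The lipoxygenase Solyc01g006560 was 25.2-fold lower at 3 h and 13.1-fold higher at 24 h per the authors' deposited table.

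Most families of transcription factors had more higher than lower members. All features together had 31.3% higher and 44.6% lower, and 38.4% and 25.4% with centring. Ethylene response factors, many of which act in stress, had 22 of 46 higher and 13 lower, with centred counts of 27 and 8. Solyc07g042230 was 129-fold higher, Solyc03g026270 30.2-fold and Solyc02g090770 26.2-fold higher per the authors' deposited table. At 24 h Solyc07g042230 stood at 3.27-fold higher, as did the peroxidase Solyc07g052550, per the authors' deposited table. Such a repeated value may rest on few reads. Solyc04g051360 stood at 90.7-fold higher and was listed at 1 at 24 h per the authors' deposited table, a value that may rest on few reads. WRKY factors had 9 of 25 higher and 3 lower, with centred counts of 15 and 1. Solyc02g094270 led them at 102-fold higher at 3 h and 46.6-fold higher at 24 h per the authors' deposited table. MYB factors outside the anthocyanin list had 24 of 56 higher and 18 lower, with centred counts of 27 and 7. The MYB factor Solyc02g089190 was 101-fold higher per the authors' deposited table and was listed at 1 in callus at 3 h. In the other direction Solyc08g076700 was 15.5-fold lower per the authors' deposited table.

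Homeobox factors had 12 of 28 higher and 8 lower, with centred counts of 15 and 3. Solyc01g096320 was 44.7-fold higher, and the gene Solyc03g120620, described as ATHB-15, a class that patterns vascular tissue in Arabidopsis, was 39.0-fold higher per the authors' deposited table. NAC factors had 11 of 26 higher and 3 lower, with centred counts of 14 and 3, led by Solyc12g013620 at 6.08-fold higher per the authors' deposited table. Other zinc finger proteins had 18 of 35 higher and 9 lower, with centred counts of 23 and 2. Basic helix-loop-helix (bHLH) factors outside the anthocyanin list turned with centring, from 5 of 27 higher and 12 lower to 6 and 2. The uncentred lower share of this family, 44.4%, was near the 44.6% over all features, and the whole column also turned. Solyc10g079650 of that family was 11.9-fold lower per the authors' deposited table. GRAS factors turned too, from 4 of 17 higher and 6 lower to 9 and 5, and their uncentred median log2 fold of 0.65 was above 0 although more members were lower.

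Signalling and protein turnover held large lists. Receptor-like kinases, which sense signals at the cell surface, had 59 of 217 higher and 108 lower, but 77 higher and 52 lower with centring. Their uncentred shares of 27.2% and 49.8% were near the 31.3% and 44.6% over all features. Solyc08g068250 was 63.5-fold higher and Solyc03g059080 38.5-fold lower per the authors' deposited table. Calmodulins and their binding proteins had 18 of 39 higher and 8 lower, with centred counts of 20 and 3. F-box proteins, which choose targets for degradation, had 23 of 38 higher and 8 lower, with centred counts of 27 and 4, led by Solyc02g079150 at 9.73-fold higher per the authors' deposited table. U-box and RING proteins had 26 of 68 higher and 18 lower, with centred counts of 35 and 7. The RING gene Solyc02g067680 was 30.8-fold higher and the RING-H2 gene Solyc07g007440 38-fold lower per the authors' deposited table.

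Enzyme families of specialised metabolism were split. Cytochrome P450 enzymes outside the anthocyanin list had 40 of 109 higher and 47 lower, and 46 higher and 34 lower with centring. The uncentred shares of these enzymes, 36.7% and 43.1%, were near the 31.3% and 44.6% over all features. The 4 largest reductions lay close together, from 38.1-fold for Solyc10g081550 to 43.8-fold for Solyc03g019870 per the authors' deposited table. Glycosyltransferases that use UDP-sugars had 35 of 70 higher and 22 lower, with centred counts of 40 and 10. Solyc10g085230 was 54.9-fold higher per the authors' deposited table. The near neighbours Solyc04g074360 and Solyc04g074380 were 33.8-fold and 10.4-fold higher, and Solyc04g074330 9.04-fold lower, per the authors' deposited table. GDSL esterases, lipases of the apoplast, had 18 of 31 lower and 7 higher, with centred counts of 12 and 7. A stearoyl-ACP desaturase (Solyc06g054670), which makes unsaturated fatty acids, was 148-fold higher at 3 h and 125-fold higher at 24 h per the authors' deposited table. Subtilisin-like proteases had 21 of 30 lower and 3 higher, with centred counts of 12 and 3, although Solyc07g056170 was 36.2-fold higher per the authors' deposited table.

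Genes of photosynthesis, a function of green tissue, were lower almost throughout. Of 70 members 65 were lower and 1 higher, with centred counts of 51 and 1. Of 24 chlorophyll a/b binding proteins, the antenna of the photosystems, 23 were lower with and without centring. Photosystem subunits had 20 of 23 lower, and 12 with centring. A protochlorophyllide reductase (Solyc12g013710), the light-dependent step of chlorophyll synthesis, was 24.0-fold lower and the binding protein Solyc12g011280 22.2-fold lower per the authors' deposited table. At 24 h, against the same controls, 43 of the 70 were higher and 0 lower, and Solyc12g013710 stood at 3.72-fold higher per the authors' deposited table. In callus at 3 h 4 were higher and 26 lower. Of 6 clock and light signalling genes 4 were higher and 2 lower, with centred counts of 4 and 0. The clock coupling factor ZGT gene Solyc09g064820 was 6.59-fold higher at 3 h and 2.01-fold lower at 24 h per the authors' deposited table. The part of light and of the time of sampling in these values was not tested.

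**Figure D4:**
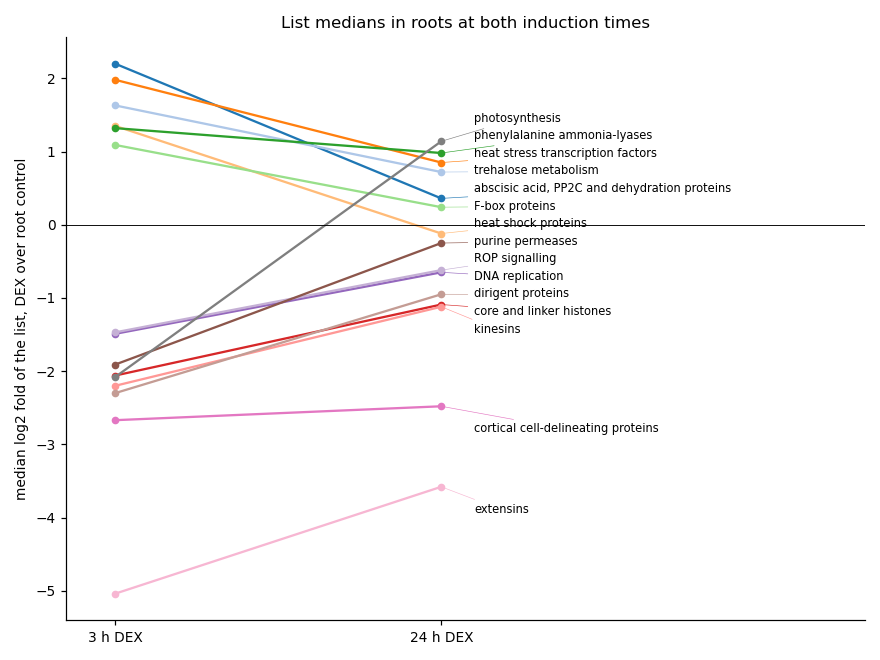
Median log2 fold of 15 gene lists in roots 3 h and 24 h after DEX, each against the same root control libraries. The abscisic acid list has a median of 2.20 at 3 h and 0.36 at 24 h, the heat shock proteins 1.35 and -0.12, the histones -2.06 and -1.09, the extensins -5.04 and -3.58, and photosynthesis -2.08 and 1.14.

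Callus at 3 h shares no libraries with the root comparison, so the lists of higher and lower features can be set against each other. Features higher in both made up 49.7% of those higher in root and 55.9% of those higher in callus. Features lower in both made up 30.8% of those lower in root and 58.6% of those lower in callus. Over all features 31.3% were higher and 44.6% lower in root, and 27.8% higher and 23.4% lower in callus. The share of 30.8% thus stands beside 23.4% of all features lower in callus, and that of 58.6% beside 44.6% lower in root. A further 273 of the 2359 features lower in root were listed at exactly 1 in callus, where a fold of 1 may also stand for a gene without reads. With both columns centred the shares were 54.1% and 74.7% for higher features, and 35.6% and 38.7% for lower ones. Of all features, 38.4% were then higher and 25.4% lower in root, with 27.8% and 23.4% in callus as before. The centred 74.7% thus stands beside 38.4%, and the centred 38.7% beside 25.4%. At a 4-fold limit, without centring, the shares of features called in both were 40.8% and 43.8% for higher, and 12% and 30.8% for lower. Of all 5295 features, 601 were then higher and 902 lower in root, and 560 higher and 351 lower in callus. The features kept in the table had to pass in at least 1 of the comparisons, which bears on every such share.

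Opposite calls were fewer, with 81 features higher in root and lower in callus and 113 lower in root and higher in callus. The 81 were out of 1657 higher in root, beside 23.4% of all features lower in callus. The 113 were out of 2359 lower in root, beside 27.8% of all features higher in callus. The calcium-binding protein 39 gene Solyc07g065130 was 12.1-fold higher in root and 30.5-fold lower in callus per the authors' deposited table. A gibberellin 2-oxidase (Solyc02g070430) was 2.42-fold higher in root and 80.7-fold lower in callus per the authors' deposited table. For the flavonol synthase Solyc06g073080 the authors' deposited table gave 19.8-fold higher in root and 6.34-fold lower in callus. The wound-induced protein Solyc07g054750 was 23.5-fold higher in root and 5.95-fold lower in callus per the authors' deposited table. In the other sense, the peroxidase Solyc11g007210 was 34.5-fold lower in root and 25.2-fold higher in callus per the authors' deposited table. Proteinase inhibitor II (Solyc11g020960), a defence protein against insects, was 33.0-fold lower in root and 9.44-fold higher in callus per the authors' deposited table. Of the 113 features, 28 had a callus fold between 5.2 and 5.3, a repeated value seen in the plot of both tissues and also carried by the dirigent gene Solyc04g010270, and its origin was not tested. The chlorophyll a-b binding protein Solyc03g005770 was 8.62-fold lower in root and 22.1-fold higher in callus per the authors' deposited table.

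**Figure D5:**
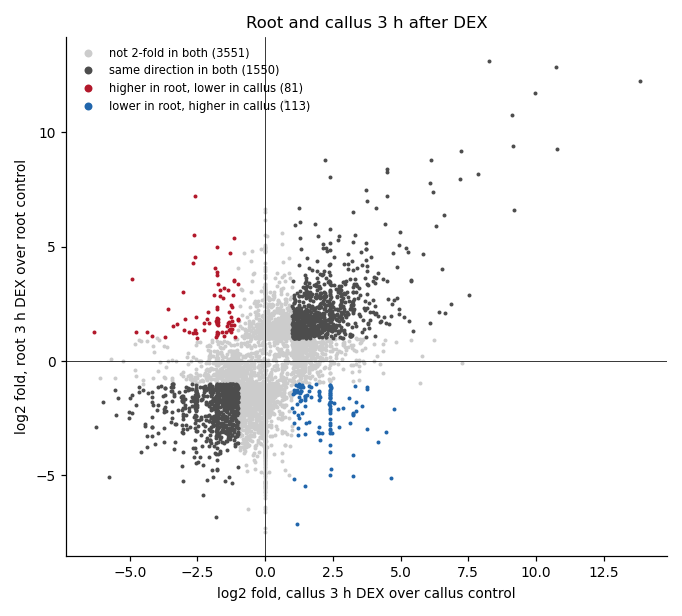
Log2 fold of each of 5295 features at root 3 h DEX over root control (vertical) against callus 3 h DEX over callus control (horizontal). Dark grey points are at least 2-fold in the same direction in both tissues, red points are the 81 features higher in root and lower in callus, blue points the 113 lower in root and higher in callus; a vertical column of points at 0 holds features listed at a fold of 1 in callus.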

How the data were processed

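Stranded messenger RNA libraries of roots and callus were sequenced from both ends on a HiSeq, per the labels' protocols. The submitters' processing notes name CASAVA 1.8.1, and the file headers name CLC bio software. The aligner, genome build and counting method are, like the normalization, not given in the sources used here. Per the file headers, the authors deposited 4 comparisons, each as a signed fold (a score whose negative values are sizes of reductions), a linear ratio and its log10. Both deposited files hold the same signed folds, with a largest difference of 0. The reference group is not named in the headers and was read as the controls of that tissue. Per its file name, the table holds features at an FDR of 0.05 and a fold of 2 in at least 1 comparison.

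Log2 folds were computed from the deposited ratios of the authors, and higher and lower were called at a fold of 2. Count and linear models over libraries could not be used, because no values per library were analysed, and counting intervals are not given. Depth is unknown. Alternatives were centring on the column median, a 4-fold limit, no limit, and leaving out 48 features whose root fold is exactly 1 at either time or equal at both times. The 92 lists rest on words in the descriptions and, for anthocyanin genes, on 26 identifiers, of which 18 were found. Members and lists were chosen with earlier results of these data known. Named genes were drawn by a rule that takes the 15 highest and 15 lowest features, all anthocyanin list members, in each other list the 4 members farthest from 1 in its majority direction and the 2 farthest in the other, past 2-fold, and 6 features each way with opposite folds in root and callus. Genes outside this rule are said to be chosen after their values were seen. The RefSeq gene table given matched 0 identifiers, so positions and sequences are not printed. Calculations used Python 3.11.15, numpy 2.4.6 and pandas 2.3.3, with plots from matplotlib 3.10.9, and the counting code was tested on simulated data.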

Additional observations from a re-analysis of the deposited data

How the results depend on the processing

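Of 5295 features 1657 were higher and 2359 lower at root 3 h. With the column centred 2032 were higher and 1347 lower, at a 4-fold limit 601 and 902, with centring and a 4-fold limit together 1048 and 529, and with no limit 2264 and 3005. Higher features in both root and callus at 3 h numbered 823, against 1100 with centring and 245 at 4-fold. Lower features in both numbered 727, against 480 with centring and 108 at 4-fold. The share of higher among called features was 41.3%, and 60.1% with centring, which adds the same shift to every feature by its construction. Of 92 list medians, 44 kept their direction and their side of 2-fold with centring, 20 kept their direction but were no longer past 2-fold, 15 passed it newly, and 13 under 2-fold, with medians at or below 0, stood at or above 0. Without the 48 features with exact or repeated folds 89 of the medians kept direction and side, and 1647 features were higher and 2348 lower. No paired analysis was possible because values per library were not analysed here, and leaving out replicates in turn was not run for the same reason. The depth behind each fold is unknown, so folds of features with few reads cannot be told from those with many.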

Other observations

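Of the 5295 features 2827 were in none of the gene lists, and 465 of all features are described as unknown proteins. Of the unknown proteins 150 were higher and 199 lower at root 3 h, and 187 and 129 with the column centred. The features in no list given here were named after their values were seen, except those that the naming rule holds. By that rule, the unknown protein Solyc01g087180 was 149-fold higher in root and 5.99-fold lower in callus at 3 h per the authors' deposited table. The unknown protein Solyc02g076890 was 141-fold lower in root and 2.24-fold higher in callus at 3 h per the authors' deposited table. Phytosulfokines are secreted peptides that promote cell growth, and the precursor genes Solyc02g092120 and Solyc02g092110 were 29.7-fold and 25.9-fold higher at root 3 h per the authors' deposited table. At root 24 h they stood at 2.45-fold and 2.08-fold higher per the authors' deposited table. A protein kinase (Solyc02g090970) was 67.6-fold higher, a ribonuclease T2 (Solyc05g007950) 64.4-fold, a blue copper protein (Solyc03g116690) 61.4-fold and a glutamate receptor-like channel (Solyc06g063190) 49.6-fold higher at root 3 h per the authors' deposited table.

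On the lower side, a transporter of the malic acid family (Solyc08g079770) was 58.9-fold lower and a TPR domain protein (Solyc07g008210) 53.7-fold lower at root 3 h per the authors' deposited table. A gene described as NADH dehydrogenase (Solyc06g007160) was 46.7-fold lower at 3 h and 1.95-fold higher at 24 h per the authors' deposited table. The plastid glucose-6-phosphate translocator Solyc05g045670 was 29.5-fold lower and the nuclear factor Y subunit Solyc01g099320 28.3-fold lower at root 3 h per the authors' deposited table. Actin depolymerizing factor 10 (Solyc06g035980), of a family that cuts actin filaments, was 26.6-fold lower in root and 5.38-fold higher in callus at 3 h per the authors' deposited table. Genes described as Stig1 went both ways at root 3 h, with Solyc02g080930 at 32.1-fold higher and Solyc05g050730 at 27.1-fold lower per the authors' deposited table.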
